A study of Homo sapiens with 18 samples.

Results

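THP-1 cells that overexpressed S100A9 and were treated with Adavivint were compared with THP-1 cells that carried the empty vector and received no drug. The comparison used 6 of the 18 libraries of the series, 3 in each group, chosen by the group named in the sample labels. The question was which genes of the overexpressing cells stood at the control level after the drug, which passed beyond it and which stayed short of it. Transcripts were counted per gene by RNA sequencing, and levels are given as CPM, the counts of a gene relative to its library's size after TMM scaling. A pair of further THP-1 groups with 3 libraries each, overexpression without drug and empty vector with drug, served to place each gene before and after treatment.

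All 4 THP-1 groups were transduced with lentivirus and selected with puromycin at 2 µg/mL, started at 48 hours and kept for at least 24 hours. The treated groups then received Adavivint at 1 µM for 36 hours. No vehicle is stated for the untreated cells, so the comparison joins the effect of the overexpression vector, of the drug and of whatever carried the drug. No promoter of the vector is named in the labels, and counts of vector transcripts cannot be told apart from those of the endogenous S100A9 gene. No label says that the 3 libraries of a group came from separate cultures, so the spread behind each p-value may be technical.

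S100A9 encodes a small calcium-binding protein that pairs with S100A8 in neutrophils and monocytes and acts as an inflammatory signal when it is released. THP-1 is an established human monocytic leukemia line. Adavivint, also called lorecivivint, is a small-molecule inhibitor of the kinases CLK2 and DYRK1A, which phosphorylate splicing factors among other targets, and it lowers Wnt signalling. Among the programs described here, ATF4 is a transcription factor that switches on amino acid synthesis and transport under stress, HSF1 drives the chaperones of the heat shock response, and SREBP2 drives the enzymes of cholesterol synthesis.

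The 6 libraries held 38433169 to 61448663 counts, and the deepest of the 12 THP-1 libraries held 84409062. Scaling factors (TMM) lay between 0.96 and 1.04. No pair of replicates agreed within sampling noise, and the chi-square per degree of freedom ran from 7.18 to 37.2. Empty vector replicate 1 stood apart from its group, at 25.5 and 37.2 against replicates 2 and 3, which differed from each other by 12.3. In that library 19 of the 22 tested genes of the heat shock list and 21 of the 24 of the cholesterol list had the highest level of the group. The main counts that rest on this library are given with and without it.

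S100A9 ended far above the control. It stood at 9.38, 3.85 and 5.91 CPM in the empty vector libraries, at 29.1, 28.8 and 26.3 CPM with overexpression alone, and at 103, 112 and 105 CPM with overexpression and Adavivint. The groups did not overlap, and the final level was 16.6-fold above control (log2 fold change 4.05, SE 0.21, edgeR quasi-likelihood test with Benjamini-Hochberg adjustment, adjusted p = 2.53e-10). Empty vector cells with the drug stood at 15, 14 and 12.8 CPM, so the drug-treated overexpressing cells were also 2.94 log2 units (adjusted p = 1.8e-05) above the drug-treated control. GENCODE 29 places S100A9 (ENSG00000163220) at chr1:153357854-153361027 of GRCh38, plus strand.

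The partner gene S100A8 ended above control with the drug. It was at 1.08, 0.794 and 0.581 CPM in control, at 0.272, 0.625 and 0.301 CPM with overexpression, and at 5.89, 6.1 and 4.75 CPM with overexpression and drug. The final level lay 6.75-fold above control (log2 fold change 2.76, SE 0.27, adjusted p = 2.92e-07), with all 3 treated libraries above all 3 controls. With overexpression alone it was lower by a log2 fold change of -0.99 (edgeR adjusted p = 0.0256), where 1 library overlapped with control. That call was lost without empty vector replicate 1 (adjusted p = 0.125), overexpression replicate 1 (0.0799) or overexpression replicate 3 (0.0987). Of the 9 tested S100 genes, 5 ended higher and 3 lower (median log2 fold change 0.31), near the shares over all genes given next. S100P, which encodes a relative secreted by many tumours, ended 0.70 log2 units higher, and S100A4, a gene linked to cell motility, lower (log2 fold change -0.54).

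Most genes tested differed from the control at the end. Of 15403 genes tested, 13077 passed an adjusted p of 0.05 (84.9%), 6747 higher (43.8%) and 6330 lower (41.1%). The median log2 fold change over all genes was 0.05, the median fold of a called gene was 2.27, and 7470 called genes differed at least 2-fold. Levels are relative to each scaled library, so a median near 0 and similar numbers higher and lower follow in large part from the scaling. The median was -0.01 with library totals and 0.10 with DESeq2 size factors. A change in total RNA per cell would not be seen, and each end level is relative in this way. Large differences were mainly gains, with 1494 genes at least 10-fold higher and 297 at least 10-fold lower. The 95% interval lay inside 1.5-fold either way for 3048 genes (19.8%), and these are said to be at the control level. Of these, 1760 also passed the test, so a gene that passed could still be at the control level. The whole interval lay past 1.5-fold for 8535 of the genes that passed. In cells with the empty vector and the drug, 6814 genes were higher and 6329 lower than in the same control libraries.

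The genes with the largest gains were without a single count in the control. SLC5A5, the sodium-iodide symporter of the thyroid, had 0 counts in the 3 control libraries and 37.1, 34.9 and 33 CPM after overexpression and drug. Against the floor of 3 counts over the control group it was at least 1890-fold higher. GREM1, a secreted BMP antagonist, reached 33, 33.5 and 32.1 CPM, at least 1780-fold higher. The other 8 genes chosen by size were PRLHR, SLC17A8, SLC36A2, LDHAL6B, FBLN5, TFCP2L1, RASL12 and CYP7A1, the last the rate-limiting enzyme of bile acid synthesis, with bounds from 857-fold for PRLHR down to 548-fold for CYP7A1. All 10 stood at similar levels in empty vector cells with the drug, between 6.46 CPM in the lowest library (RASL12) and 34.8 CPM in the highest (SLC5A5), and none passed the test between the 2 drug-treated groups.

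The largest losses included genes of blood cell signalling and adhesion. RGS18, a regulator of G protein signalling in blood cells, fell from 83.5, 74.4 and 76.1 CPM to 0.986, 1.4 and 1.07 CPM, 67.7-fold. FYB1, an adaptor protein of leukocytes, fell from 72, 77.8 and 77.1 to 1.68, 2.28 and 1.86 CPM, 38.9-fold. The tetraspanin gene CD82 fell 37.1-fold and NREP 35.6-fold. SPATA12, NEGR1, FKBP1C, ANKRD22, ID3 and DHRS9 made up the rest of the 10, with folds between 29.3 for DHRS9 and 52.8 for SPATA12. FKBP1C is a near-identical copy of FKBP1A, so its counts are uncertain. MYC, the growth-promoting transcription factor, was at 369, 347 and 327 CPM in control and at 17.9, 21.5 and 25.1 CPM at the end, 16.1-fold lower (log2 fold change -4.01, SE 0.11, adjusted p = 3.47e-13). Overexpression alone left MYC at 329, 317 and 316 CPM, with a log2 fold change of -0.12 that missed the threshold (adjusted p = 0.371).

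To ask whether the drug brought overexpressing cells back, genes displaced by overexpression alone were followed to their end level. Overexpression without drug called 4307 genes against empty vector (28%), and 758 of them (4.92% of all tested) differed at least 1.5-fold, 498 raised and 260 lowered. Of all 15403 genes tested, 2297 were called higher and 2010 lower with overexpression alone, with a median log2 fold change of 0.02. Genes whose interval ended within 1.5-fold of control are said to be at it. Genes that passed on the other side of control went beyond it. Genes still displaced the same way had either moved further away, moved back but stopped short, or shown no drug effect that passed the test between overexpression with and without drug, a test that called 84.7% of all genes.

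Return to the control level was the exception. Of the 758 displaced genes, 45 (5.94%) ended at control, 228 (30.1%) ended beyond it and 280 (36.9%) were further from it than before the drug. Only 25 (3.3%) had moved back and stopped short, 116 (15.3%) were still displaced without a drug effect that passed, and 64 (8.44%) could not be decided. The share at control was below that among all genes tested (19.8%), though the displaced genes were chosen for standing away from these same control libraries. The median end difference was 3.33-fold for genes beyond control and 7.07-fold for genes moved further away, so most of these did not lie near the margin.

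These counts leaned on single libraries. Without empty vector replicate 1 the displaced genes numbered 500, of which 39 were at control, 136 beyond it, 195 further away and 21 short, 67 were still displaced without a drug call and 42 were undecided. Of the 758 genes, 418 were still displaced in that fit and 379 of those kept their class. Without empty vector replicate 3 there were 1087 displaced genes, 77 of them at control. Replicate 1 had the lowest level of the control group for 346 of the 498 raised genes and the highest for 177 of the 260 lowered genes. Further away and beyond control were the 2 most frequent outcomes in each of the 9 fits that left out a library.

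**Figure D1:**
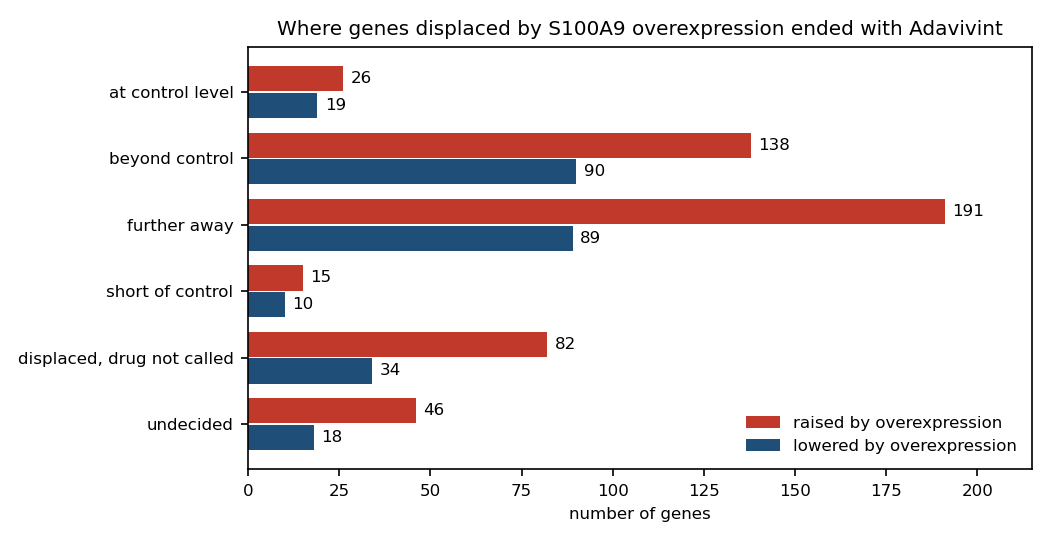
Number of genes (horizontal axis) in each outcome for the 758 genes displaced at least 1.5-fold by overexpression, with raised genes in red and lowered genes in blue. The longest bars are the 191 raised genes that moved further away and the 138 raised genes that ended beyond control, while 26 raised and 19 lowered genes ended at control.

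ATF4 targets were raised by overexpression and then scattered over every outcome. Of 39 tested genes of the amino acid response, 35 rose and 1 fell with overexpression alone, with a median log2 fold change of 0.63, against 0.02 over all genes. With the drug, 10 of the 39 ended above control and 25 below, with a median of -0.92, against 0.05 over all genes. Of the 21 displaced members, 11 ended beyond control, 3 at it, 3 further away and 1 short of it, and 3 were still displaced without a drug call. Without empty vector replicate 1 the counts above and below control were again 10 and 25.

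Several enzymes of serine, cysteine and proline synthesis ended far below control. PSAT1, of serine synthesis, went from 272, 319 and 278 CPM in control to 446, 488 and 485 with overexpression and to 31.2, 38.6 and 36.5 CPM with drug (log2 fold change against control -3.03, SE 0.08, adjusted p = 5.26e-13). CBS and CTH, which make cysteine, ended at log2 fold changes of -2.90 and -2.07, PYCR1, of proline synthesis, at -1.63, and PCK2, the mitochondrial enzyme that makes phosphoenolpyruvate, at -3.17. ALDH1L2, a mitochondrial folate enzyme, went from 6.9, 10.8 and 12.7 CPM up to 43.3, 46.4 and 43.3 and down to 2.75, 1.82 and 2.7 CPM. For each of these genes the treated libraries lay below all control libraries. PYCR1 was no longer displaced without empty vector replicate 1 or overexpression replicate 1.

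Transfer RNA synthetases took separate paths. AARS1 (alanine) and WARS1 (tryptophan) ended beyond control at -2.54 and -1.35 log2 units, and SARS1 (serine) was still raised, at 152, 158 and 159 CPM against 95.6, 116 and 108 in control (log2 fold change 0.56). AARS1 and SARS1 were no longer displaced without empty vector replicate 1. The amino acid transporter SLC1A5, not displaced by overexpression, fell to -3.46. SLC7A11, the cystine-glutamate antiporter, ended at control: it was at 37.8, 49.6 and 43.7 CPM in control, at 76.2, 88.4 and 92.9 with overexpression and at 33.6, 37 and 37.9 CPM at the end, where the groups overlap. Its end log2 fold change of -0.27 passed the test (edgeR adjusted p = 0.0225) but lay within the 1.5-fold margin.

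Other stress genes of the list ended above control. DDIT3, which encodes the pro-apoptotic factor CHOP, rose from 7.95, 8.02 and 7.78 CPM to 15.3, 14.5 and 15.4 with overexpression and to 45.2, 47.8 and 42.9 CPM with drug, 2.52 log2 units above control (SE 0.06, adjusted p = 1.65e-13). NUPR1, a stress-induced nuclear protein, ended at 8.16, 7.34 and 6.91 CPM against at most 0.426 CPM in control. GDF15, a stress cytokine, had 2 counts in the 3 control libraries and 76 at the end, a ratio of 51.3 with a 95% counting interval of 13.7 to 431. Both control counts were in empty vector replicate 1, and without that library GDF15 was at least 21.7-fold higher, against a floor of 3 counts over the other 2 control libraries. TRIB3, a pseudokinase that restrains ATF4, stood at 91, 95.4 and 101 CPM against 64.3, 63.8 and 56.3 in control, close to its level with overexpression alone (109, 99.1 and 102). ATF4 itself was at a mean of 379 CPM in control and 365 CPM at the end (log2 fold change -0.06, adjusted p = 0.336).

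Promoters of the ATF4 list are shown because 3 displaced members that share an 8-letter ATF4 composite element ended on the same side of control. The motif searched was TGATGNAA on both strands, in RefSeq promoter windows (GRCh38.p14) of 250 bases before to 50 after each start. It was found for 11 of the 33 members with a window (33.3%), against 4.46% of the 27305 genes with one. Genes can have several windows. Of the displaced members, ASNS, CHAC1 and AARS1 held it, and all 3 ended beyond control. That was also the outcome of 11 of the 21 displaced members of the list. The other members with the motif were not displaced, and whether the motif goes with an outcome was not tested. The stretches are written 5′ to 3′ on the gene's strand with the match in capitals, which is a match of letters and not a measured site. They lie at chr7:97872449-97872496 on the minus strand (ASNS), chr15:40953242-40953289 on the plus strand (CHAC1) and chr16:70289666-70289713 on the minus strand (AARS1).
ASNS: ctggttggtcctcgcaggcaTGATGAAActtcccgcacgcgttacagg
CHAC1: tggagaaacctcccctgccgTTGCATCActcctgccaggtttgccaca
AARS1: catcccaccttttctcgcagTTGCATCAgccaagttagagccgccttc

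ASNS, which makes asparagine, was at 41.8, 49.2 and 48.4 CPM in control, at 108, 114 and 112 with overexpression and at 32.7, 33.8 and 35.5 CPM at the end (log2 fold change -0.45, SE 0.07, adjusted p = 1.68e-05). CHAC1, which degrades glutathione, went from 4.28, 4.83 and 4.32 to 15.1, 12.9 and 13.4 and then to 2.21, 3.61 and 2.89 CPM. Both ended below all control libraries by small amounts, 1.37-fold and 1.54-fold. ASNS counted as at control when empty vector replicate 2 or 3 or treated replicate 1 was left out.

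Heat shock genes were lowered by overexpression and mostly stayed low. Of 22 tested genes, 17 fell and none rose with overexpression alone (median log2 fold change -0.54), and 17 ended below and 2 above control with the drug (median -0.77). The 10 displaced members spread over 1 at control, 2 beyond, 3 further away, 2 short and 2 without a drug call. Without empty vector replicate 1 the overexpression count was 15 lower, and the end counts were 15 lower and 3 higher.

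The inducible HSP70 genes returned. HSPA1A was at 46.3, 36.8 and 33.3 CPM in control, at 14.3, 13.4 and 13.1 with overexpression and at 42.6, 47 and 43.3 CPM at the end, and its 95% interval reached from 0.983-fold to 1.32-fold of control. HSPA1B went from 53.8, 39.4 and 35.8 to 16.8, 16.5 and 15.7 and then to 57.7, 61 and 56.8 CPM, just beyond control (log2 fold change 0.44, SE 0.12, adjusted p = 0.00265). The 2 genes are near-identical copies on chromosome 6, so reads may have been shared between them and their separate outcomes are uncertain. HSPA1B counted as at control without empty vector replicate 3. BAG3, a cochaperone of HSP70, also ended beyond control, at 21.9, 21.7 and 22.6 CPM against 14.4, 14.7 and 13.3.

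HSPA8 and HSP90AA1 stopped short. HSPA8, the constitutive HSP70, was at 2048, 1249 and 1005 CPM in control, at 506, 501 and 484 with overexpression and at 701, 742 and 698 CPM at the end, 2.01-fold below control. HSP90AA1, the inducible HSP90, ended at 728, 760 and 742 CPM against 1226, 953 and 852, and it was no longer called displaced when empty vector replicate 1 was left out. Its drug effect lost the call when any other library was left out, except empty vector replicate 3. DNAJA1 and HSPH1, cochaperones of HSP70, ended at log2 fold changes of -0.74 and -0.80 without a drug effect that passed, and DNAJA1 counted as short without empty vector replicate 1. FKBP4, AHSA1 (both partners of HSP90) and HSPE1 (a mitochondrial chaperonin) fell further, to -2.26, -1.39 and -1.49. FKBP4 was likewise not displaced without empty vector replicate 1, in which it was highest at 233 CPM.

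Heat shock promoters are shown because genes with the same element ended at, beyond, short of and away from control. The element GAANNTTC, which reads the same on both strands, was found for 10 of 20 members with a window (50%), against 8.21% of all genes with one. The first 2 stretches below are those of the near-identical HSP70 pair, at chr6:31815417-31815464 and chr6:31827613-31827660, both on the plus strand. HSPA8 lies at chr11:123062159-123062206 and HSP90AA1 at chr14:102087100-102087147, both on the minus strand, and DNAJA1 at chr9:33025055-33025102 on the plus strand. Capitals mark 1 match per gene. HSPA8 and DNAJA1 hold a further match in the window, and the match shown for DNAJA1 is the one farther from its start.
HSPA1A: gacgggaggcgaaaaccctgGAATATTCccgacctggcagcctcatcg
HSPA1B: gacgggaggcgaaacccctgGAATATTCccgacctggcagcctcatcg
HSPA8: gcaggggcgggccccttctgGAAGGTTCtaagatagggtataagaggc
HSP90AA1: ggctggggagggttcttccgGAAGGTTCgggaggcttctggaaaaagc
DNAJA1: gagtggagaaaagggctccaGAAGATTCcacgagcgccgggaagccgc

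Cholesterol genes were also lowered by overexpression, and they divided between return and further loss. Of 24 tested genes, 19 fell and none rose with overexpression alone (median log2 fold change -0.71, against 0.02 over all genes). With the drug, 21 ended below and 2 above control (median -0.99). Of 13 displaced members, 5 ended at control, 6 further away and 1 short of it, and 1 had no drug call. Without empty vector replicate 1 the counts were again 19 with overexpression, and 20 below and 2 above at the end. The 9-letter sterol element TCACCCCAC was found for 1 of 18 members with a window, SREBF2, so no promoter is shown for this list.

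IDI1, NSDHL and MVK, all enzymes of the pathway, were among those at control. IDI1, which interconverts the isoprenoid building blocks, was at 196, 149 and 180 CPM in control, at 82.6, 92.1 and 96.1 with overexpression and at 134, 154 and 139 CPM at the end. The end log2 fold change of IDI1, -0.29, passed the test (edgeR adjusted p = 0.00902) within the 1.5-fold margin. NSDHL, of the later sterol steps, went from 32.5, 24 and 27.4 to 17.4, 16.9 and 16.1 and to 22.9, 26 and 25.1 CPM. Both overlapped with control at the end. MVK, mevalonate kinase, lay above all control libraries at 38.8, 37.7 and 37.1 CPM against 31.4, 25.9 and 27.2. MVK counted as beyond control without empty vector replicate 1 or treated replicate 2 or 3.

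The later enzymes and INSIG1, which holds back SREBP processing, lost more. INSIG1 went from 575, 502 and 511 CPM to 246, 264 and 266 with overexpression and to 117, 133 and 124 CPM with drug (log2 fold change -2.09, SE 0.07, adjusted p = 2.24e-12). MVD, LSS, DHCR7, SQLE and MSMO1 ended at log2 fold changes of -2.99, -2.15, -1.94, -1.82 and -1.28. HMGCS1, an early enzyme of the pathway, had moved back part of the way, to 99.7, 126 and 107 CPM against 213, 149 and 181, with a drug effect that did not pass without overexpression replicate 1 or treated replicate 2. HSD17B7, not displaced by overexpression, ended 2.22 log2 units above control.

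**Figure D2:**
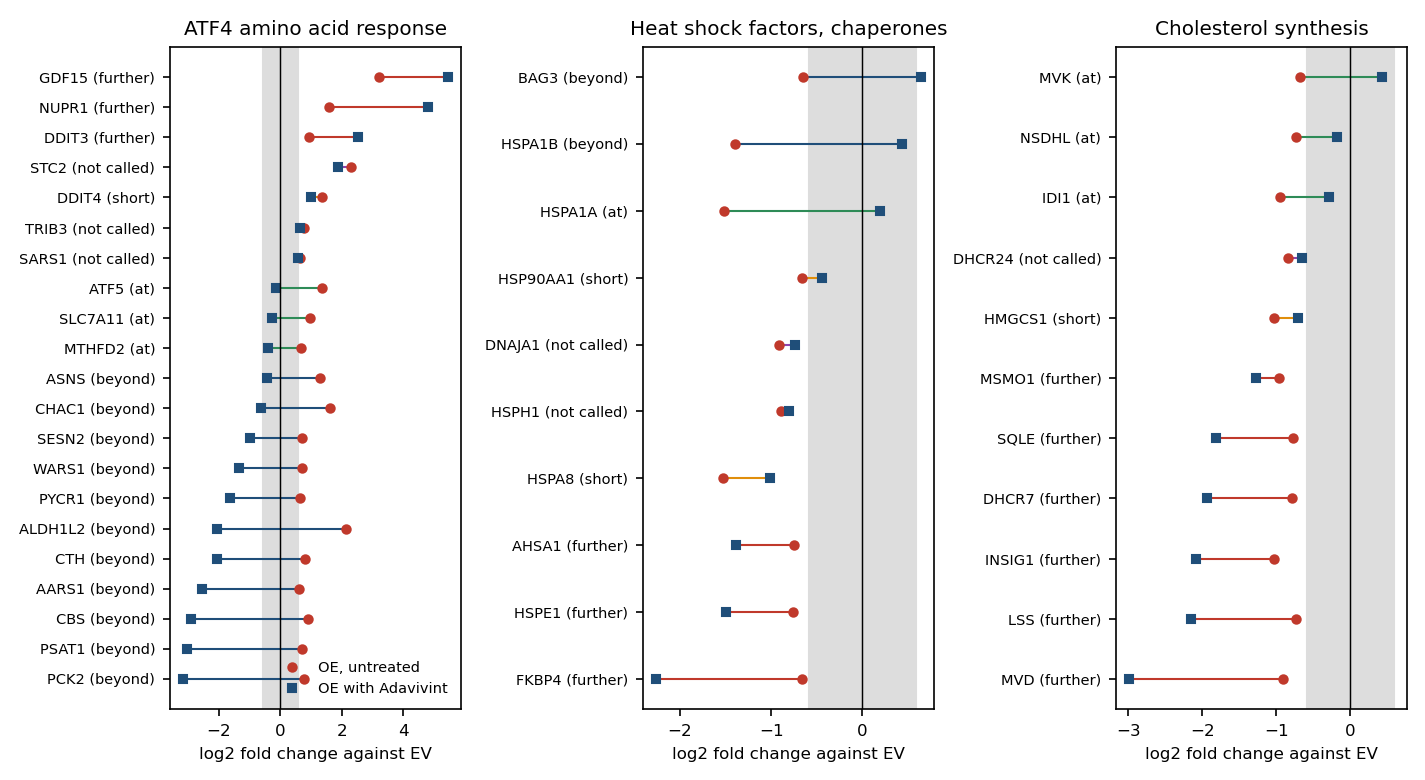
Reported displaced members of 3 lists, with the log2 fold change against empty vector (horizontal axis) with overexpression alone (red circles) and with overexpression and Adavivint (blue squares), joined by a line, and the outcome in brackets, where "not called" means still displaced with no drug effect past the test. The grey band is 1.5-fold either way. ATF4 genes start to the right and spread from GDF15 (5.44, a fitted value over 2 control counts) to PCK2 (-3.17), while heat shock and cholesterol genes start to the left, with HSPA1A, IDI1, NSDHL and MVK among those ending at control.

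Other genes that ended at control came from several functions. ULBP1, a ligand of the NKG2D receptor of natural killer cells, was at 7.53, 7.9 and 8.07 CPM in control, at 15.7, 16.7 and 17.8 with overexpression and at 7.87, 8.35 and 7.61 CPM at the end, with an interval of 0.894-fold to 1.15-fold. ATF5, a relative of ATF4, went from 58.1, 56.3 and 50.9 to 146, 143 and 137 and back to 48.2, 53.5 and 49.3 CPM. Among lowered genes, HMOX1, heme oxygenase, was at 5.41, 4.24 and 4.31 CPM with overexpression and at 10.2, 10.9 and 10.4 at the end, against 8, 10.6 and 8.35 in control. MPV17L2, a mitochondrial protein, ended at 12.2, 13.9 and 12.2 against 16.9, 12.6 and 11.4 CPM. HMOX1 counted as beyond control without empty vector replicate 2.

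CXCL10, an interferon-induced chemokine, went from above control to below it. CXCL10 was at 13.2, 2.03 and 3.58 CPM in control, at 28.3, 30.1 and 30.2 with overexpression and at 0.826, 0.804 and 0.682 CPM at the end, 8.22-fold below control (log2 fold change -3.04, SE 0.56, adjusted p = 0.000171). Its control libraries differed widely, with replicate 1 the highest, yet all lay above the treated ones and below the overexpressing ones. Without replicate 1 the end log2 fold change was -1.87. TTC39B went from 3.1, 5.54 and 6.64 to 12.8, 14.5 and 15.7 and then to 2.93, 2.98 and 3.48 CPM, where 1 control library overlaps the treated ones.

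Of the 90 lowered genes that went beyond control, MATR3, TP53INP2 and BICDL1 were named by size beside HSPA1B. MATR3, an RNA-binding protein of the nucleus, was at 204, 70.9 and 144 CPM in control, at 34.3, 75.2 and 62.3 with overexpression and at 379, 557 and 343 CPM at the end. Its displacement was no longer called without empty vector replicate 1 or without overexpression replicate 1, and its counts are uncertain because the symbol belongs to a pair of annotated genes. TP53INP2, an autophagy protein, ended at 23.7, 22.5 and 23.5 CPM against 18.2, 14 and 13.9. BICDL1, an adaptor of the dynein motor, ended at 9.09, 8.92 and 10.5 against 7.28, 7.47 and 6.93 CPM, and counted as at control without treated replicate 3.

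Genes that moved further from control included TXNIP, which binds and inhibits thioredoxin. TXNIP was at 119, 107 and 117 CPM in control, at 246, 259 and 257 with overexpression and at 468, 495 and 483 CPM with the drug, 4.22-fold above control (log2 fold change 2.08, SE 0.05, adjusted p = 1.85e-13). Its 3 conditions did not overlap. SCART1, a scavenger receptor family member, and PPFIA4, a liprin, ended 3.18-fold and 6.24-fold above control. BMF, a pro-apoptotic BCL2 family gene, went from 20.5, 19.4 and 24.1 to 42.2, 38.6 and 38.8 and to 105, 105 and 103 CPM.

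On the lowered side, CCL2, the monocyte-attracting chemokine, was at 31.2, 9.15 and 5.81 CPM in control, at 4.87, 5.49 and 5.31 with overexpression and at 0.613, 0.675 and 0.591 CPM at the end. The control spread of CCL2 was wide, and overexpression no longer displaced it without empty vector replicate 1, while the end level lay below every THP-1 library without drug. The end log2 fold change of CCL2 was -4.62, and -3.57 without that library. ID3, an inhibitor of helix-loop-helix factors, fell from 10.4, 11.1 and 10.3 to 3.68, 4.55 and 3.69 and to 0.293, 0.259 and 0.455 CPM. FOSL1, of the AP-1 family, ended 4.44-fold and SDF2L1, an endoplasmic reticulum protein, 3.42-fold below control. The drug effect on SDF2L1 no longer passed when any overexpression library or treated library was left out.

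Few genes stopped part of the way. P2RX7, an ATP-gated channel that triggers inflammasome signalling, was at 30.3, 35.8 and 38.6 CPM in control, at 93.5, 94.2 and 90.2 with overexpression and at 59, 64.3 and 61.6 CPM at the end, 1.77-fold above control (log2 fold change 0.82, SE 0.07, adjusted p = 1.02e-07). DDIT4, an inhibitor of mTORC1, ended at 37.4, 38.7 and 41 CPM between 15.5, 23.9 and 19.4 in control and 52.1, 47.2 and 49.1 with overexpression. The keratin gene KRT16 ended 1.64-fold above control, which did not pass without empty vector replicate 1 (adjusted p = 0.0546). LRATD2 ended 1.44-fold above control and counted as at it without that library. Without treated replicate 2, LRATD2 was undecided.

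Of the 10 lowered genes that stopped short, SPRY4, ID1 and NWD1 were named by size beside HSPA8. SPRY4, which restrains receptor tyrosine kinase signalling, was at 11.3, 9.04 and 7.32 CPM in control, at 3.37, 3.5 and 2.39 with overexpression and at 4.83, 4.38 and 3.89 CPM at the end. The drug effect on SPRY4 did not pass without overexpression replicate 3 or treated replicate 1. ID1, a relative of ID3, ended at 4.11, 3.19 and 4.14 against 7.26, 8.06 and 6.76 CPM. In contrast to ID1, ID3 had moved further away. NWD1 ended 1.48-fold below control, with a drug effect that did not pass without overexpression replicate 1 or treated replicate 3.

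Genes still displaced against the untreated control, without a drug call, included parts of the NF-kB pathway. BIRC3, an inhibitor of apoptosis and NF-kB target, stood at 14.9, 16.6 and 15.9 CPM at the end, at 15.2, 17.1 and 16 with overexpression and at 8.4, 5 and 7.15 in control. RELB, an NF-kB subunit, ended at 28.4, 30.1 and 28 against 15.7, 8.28 and 9.91 CPM, and it counted as moved further away without empty vector replicate 1 or 2. The keratin gene KRT17 ended 3.15-fold above control. GZMA, which encodes a granzyme, was at 11.3, 8.46 and 7.57 CPM in control, at 2.45, 2.4 and 1.9 with overexpression and at 2.21, 2.23 and 1.68 at the end, and LRRC4 ended 1.63-fold below control. KBTBD11-OT1, which overlaps another gene, ran from 0.0158 to 55.1 CPM within the overexpression group, so its class is uncertain. Between the drug-treated groups, overexpressing cells differed by -0.05 log2 units for BIRC3, -0.15 for RELB, 0.40 for KRT17, 0.63 for GZMA and 0.05 for LRRC4. None of these differences was called. Without drug they were 1.23, 1.07, 1.53, -2.02 and -0.92.

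**Figure D3:**
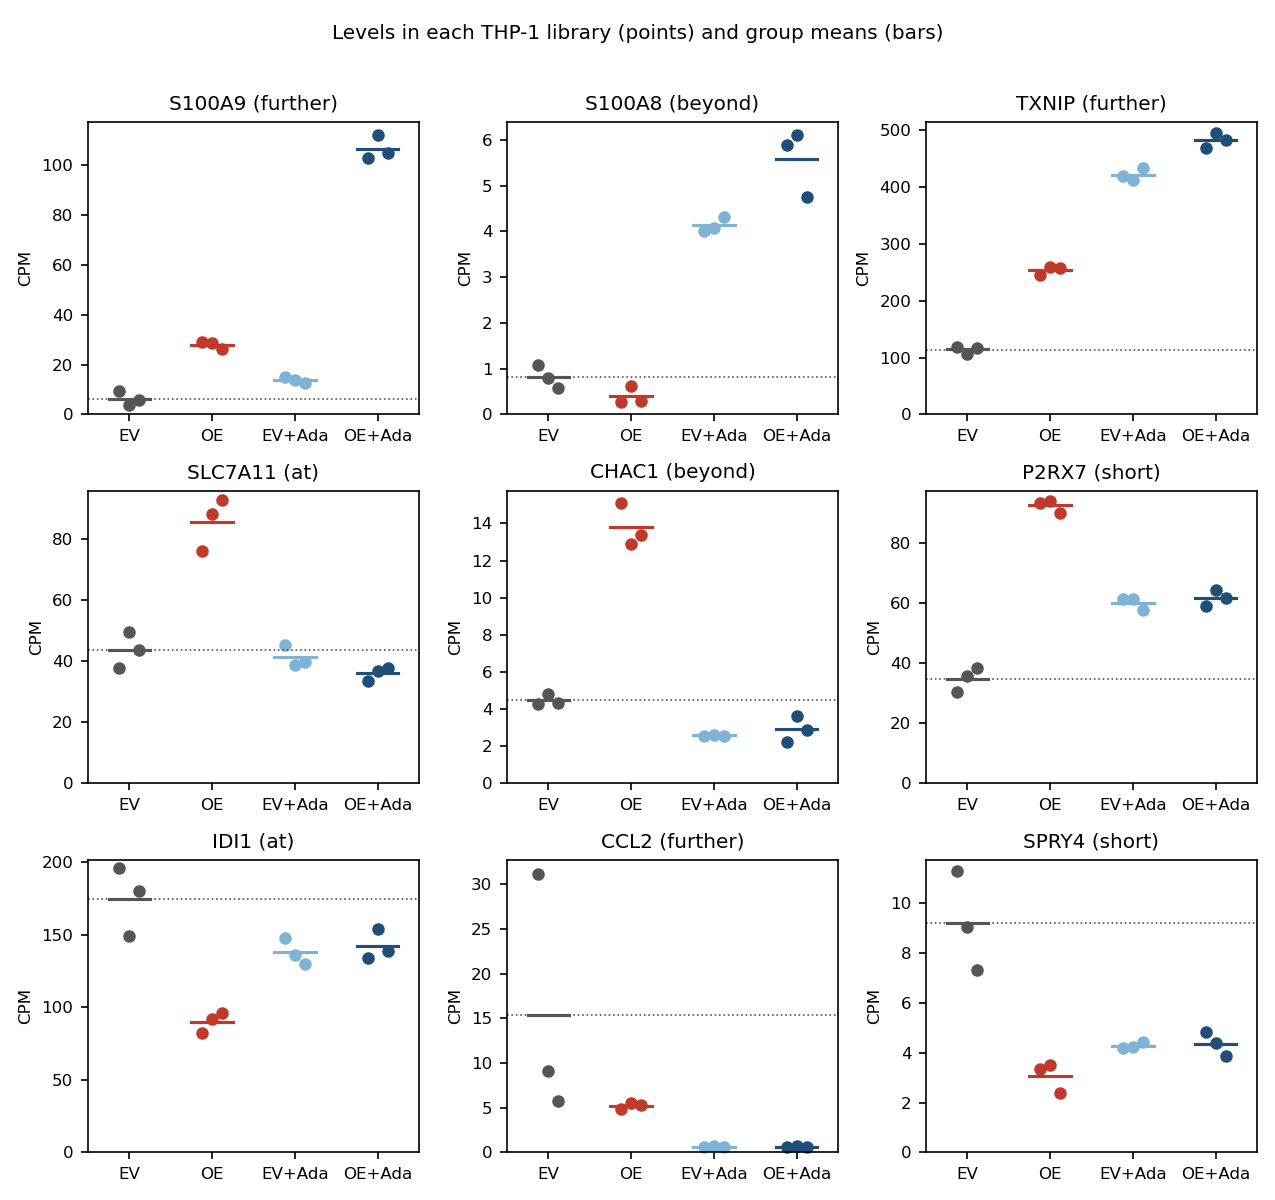
CPM (vertical axes, linear from 0) of 9 genes in the 12 THP-1 libraries, with 1 point per library, a bar at each group mean and a dotted line at the mean of the empty vector (EV), beside overexpression (OE) and the same groups with Adavivint (Ada), and the outcome in brackets. SLC7A11 and IDI1 end a little below the line and count as at control by the 1.5-fold margin. CHAC1 ends below the line, P2RX7 and SPRY4 between the line and overexpression, and S100A9 and TXNIP above every other group.

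Few displaced genes differed between overexpressing and empty vector cells once both had the drug. Overexpressing and empty vector cells were compared under the drug, with 6 libraries of which only the treated overexpression group enters the end comparison and none enters the choice of displaced genes. Of the 498 raised genes, 28 (5.62%) were still higher in overexpressing cells under the drug, against 3.69% of all genes tested, and 6 were lower. Of the 260 lowered genes, 10 (3.85%) were still lower, against 4.8% of all genes, and 12 were higher. The median difference under the drug was 0.05 log2 units for raised genes, against 0.89 without it, and 0.03 for lowered genes, against -0.82. The medians without drug come from the contrast that chose these genes, so they were large by that choice. A smaller median under the drug is therefore favoured by the choice. Only 47 of all genes tested differed by 2-fold or more between the drug-treated groups.

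Of the 45 genes at control, 7 were called between the drug-treated groups, where 3.69% of all genes tested were higher and 4.8% lower. The 7 include a gene without a symbol (ENSG00000288683) at a mean of 0 CPM in control and in treated overexpressing cells. HSPA1A, not among the 7, was at 40.3, 43.6 and 45.2 CPM and IDI1, also not called, at 148, 136 and 130 CPM in empty vector cells with drug. The genes named next were taken from the list of 56 displaced genes called under the drug, after their values were seen. ATF5 was at 33.1, 32.9 and 35.5 CPM in those cells, below the overexpressing cells by 0.57 log2 units (adjusted p = 0.000309). CHI3L1, a secreted chitinase-like protein, averaged 8.25 CPM with the empty vector and drug and 14.9 CPM with overexpression and drug, against 12.5 CPM in control. It averaged 7.35 CPM with overexpression alone, so its difference was reversed under the drug. TRIB3 kept its difference nearly whole, at 58.2, 58.3 and 56.9 against 91, 95.4 and 101 CPM (0.73 log2 units under the drug, 0.75 without it).

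Further genes differed between the drug-treated groups in the direction seen without drug. HLA-DRA, a chain of the MHC class II molecule, was higher in overexpressing cells by 1.07 log2 units under the drug (adjusted p = 0.0172). VEGFA, the angiogenic growth factor, ended beyond control at a mean of 54.3 CPM against 145 in control and 45.3 in empty vector cells with drug. CA2, carbonic anhydrase 2, averaged 69.3 CPM against 40.6 with the empty vector and drug, a difference of 0.77 log2 units, the same as without drug. The cholesterol genes MVD, DHCR7, LSS and MVK were lower in overexpressing cells in both settings, with log2 fold changes under the drug of -0.38, -0.45, -0.42 and -0.43. Among lowered genes, 10 kept their direction and 12 were reversed. The reversed ones included IFI30 (-0.83 without drug, 0.51 under it) and GATA2 (-0.68 and 0.46).

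**Figure D4:**
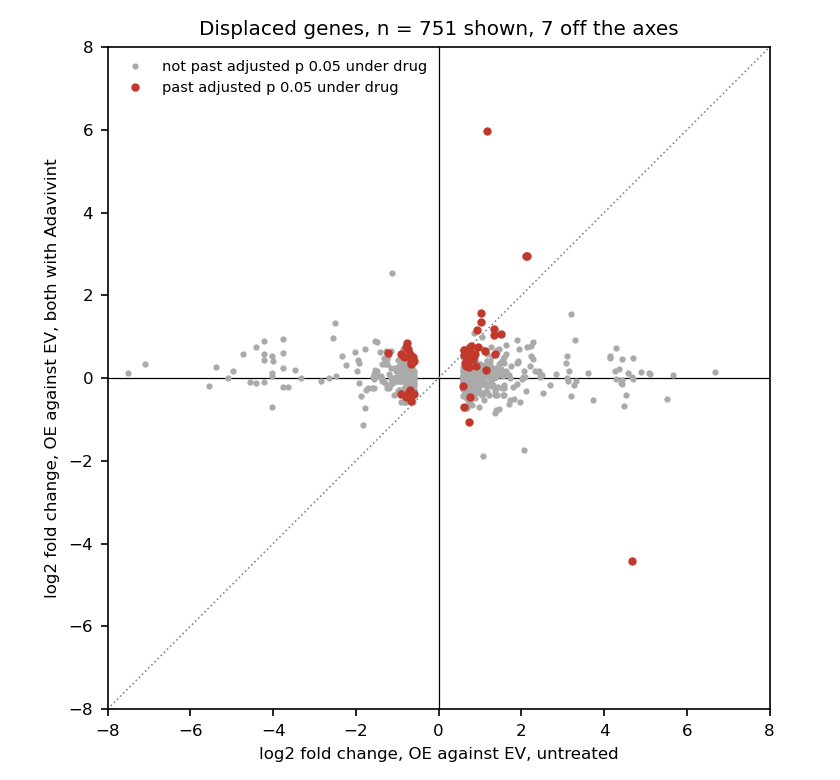
Log2 fold change of overexpression against empty vector without drug (horizontal axis) and with Adavivint in both (vertical axis) for 751 of the displaced genes, with 7 beyond the axes, genes past an adjusted p of 0.05 under the drug in red and equal differences on the dotted line. Most points lie along a vertical difference of 0, and S100A9, at 2.13 and 2.94, is among the few near or above the line.

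The other gene lists are described by their end level against control, over all tested members. Each count is to be read beside the shares over all genes tested, 43.8% higher and 41.1% lower with a median log2 fold change of 0.05. Ribosome biogenesis and DNA replication genes mostly ended lower. Of 38 ribosome biogenesis genes, 33 ended lower and 4 higher (median log2 fold change -1.22), among them NOLC1 and NAT10, which process ribosomal RNA, at -1.61 and -1.92. Of 35 DNA replication genes, 31 ended lower and 3 higher (median -1.46), and MCM4 of the replicative helicase fell from 649, 582 and 552 to 82.2, 83.6 and 86 CPM. Of 31 mitosis genes, 12 ended higher and 16 lower (median -0.12), and 11 were at the control level by interval. MKI67, the proliferation marker, ended 1.45 log2 units higher while CCNA2, cyclin A2, ended at -1.61.

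Counts in the next 2 lists lay near the shares over all genes. Of 11 CDK inhibitor and cyclin D-CDK genes, 4 ended higher, among them CDKN1B (1.38), and 6 lower, among them CDK4 (-1.21), with a median of -0.27. Of 14 BCL2 family genes, 7 ended higher and 7 lower (median -0.05). BCL2, the anti-apoptotic founder of the family, fell from 148, 155 and 152 to 17, 14.7 and 14.7 CPM. In the MYC network 7 of 11 genes ended higher and 4 lower (median 0.30), and MXD1, which opposes MYC, rose from 32.9, 33.4 and 35.2 to 487, 464 and 502 CPM.

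Kinase genes of a list that joins the CLK and DYRK families of the drug's targets with HIPK and SRPK genes were mostly higher at the end. Of 14 CLK, DYRK, HIPK and SRPK kinase genes, 9 ended higher and 3 lower (median 0.69), with CLK4 at 1.59 and DYRK1A at 1.27. Of 28 splicing factor genes, 14 ended higher and 8 lower (median 0.15), and 14 of the 28 were at the control level by interval. SRSF7 fell to 63.9, 62 and 58.2 CPM from 298, 277 and 266. Of 32 Wnt genes, 13 ended higher and 13 lower (median 0.08), near the shares over all genes. APC, of the complex that degrades beta-catenin, ended at 3.22 log2 units above control, and the coreceptor LRP5 at -3.67.

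NF-kB genes that passed were mostly higher, while the counts of interferon genes lay near the shares over all genes. Of 29 NF-kB genes, 17 ended higher and 5 lower (median 0.94), with the subunits REL and RELA at 1.63 and 0.98. Of 40 interferon response genes, 15 ended higher and 21 lower (median -0.25). Of 14 MHC class II genes, 8 ended higher and 5 lower (median 0.57). CIITA, their master regulator, went beyond control, from 11.2, 8.6 and 15.9 to 20.3, 21.8 and 23 and to 2.45, 2.1 and 2.32 CPM, whereas HLA-DRA and HLA-DMB, which it controls, moved further up, to 2.55 and 2.51 log2 units above control.

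In the stress and signalling lists more members that passed ended lower than higher, though the unfolded protein response counts lay near the shares over all genes. Empty vector replicate 1 was the highest control library for 19 of the 22 unfolded protein response genes. Of 22 unfolded protein response genes, 8 ended higher and 12 lower (median -0.50), or 9 and 12 without empty vector replicate 1 (median -0.33), with the sensors EIF2AK3 and ATF6 at 1.43 and 1.13 and the chaperone HYOU1 at -2.58. Of 22 NRF2 genes, 4 ended higher and 14 lower (median -0.72), or 5 and 13 without that library, with NFE2L2 itself at 1.30 and the peroxiredoxin PRDX1 at -2.63. Of 24 MAPK feedback genes, 8 ended higher and 15 lower (median -0.85), with the phosphatase DUSP6 at -4.16. Of 10 ID and SMAD genes, 1 ended higher and 7 lower (median -0.37). Of 31 oxidative phosphorylation genes, 10 ended higher and 19 lower (median -0.35), and 14 of the 31 were at the control level by interval.

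Histone genes showed the highest list median. Of 20, 13 ended higher and 4 lower, with a median of 2.26. H2BC12 went from 8.65, 6.95 and 5.96 to 4.48, 4.35 and 3.99 with overexpression and to 130, 139 and 130 CPM with drug, beyond control.

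**Figure D5:**
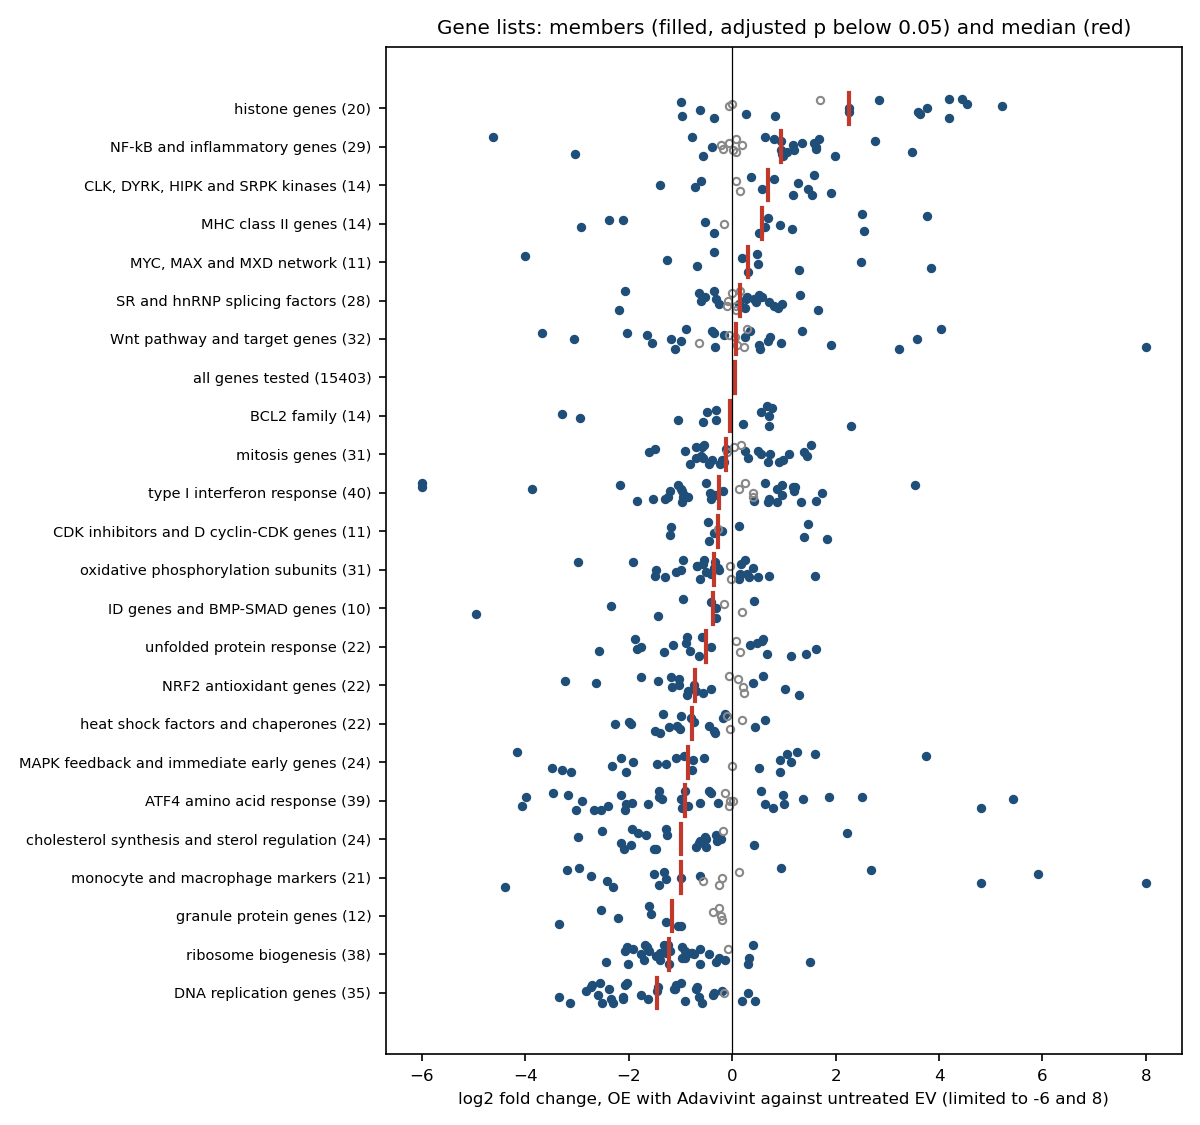
Log2 fold change of overexpression with Adavivint against untreated empty vector (horizontal axis, values limited to -6 and 8) for the tested members of the lists with at least 10 tested genes (number in brackets), with filled points for adjusted p below 0.05, open points for the rest and a red bar at the median. Medians run from -1.46 for DNA replication to 2.26 for histones, with 0.05 for all genes tested.

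Myeloid identity genes were present in both groups and shifted in level. Summed monocyte markers ran from 747 to 778 CPM in control and from 808 to 856 CPM at the end, with MRC1 at 0 in control and MSR1 at 0 at the end. Of the 21 tested, 5 ended higher and 12 lower (median -1.0). CD14, the lipopolysaccharide coreceptor, rose from 0.167, 0.477 and 0.445 to 21.5, 21.8 and 21.2 CPM, and CCR2, the receptor for CCL2, fell from 30.9, 29.4 and 31.7 to 1.44, 1.48 and 1.43 CPM. Summed granule protein genes fell from between 2766 and 3034 to between 1038 and 1099 CPM, with 8 of 12 lower and none higher (median -1.17), and PRTN3 (proteinase 3) at -3.36.

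Markers of other cell types were summed in the same way, and fewer cells of a type cannot be told apart from less RNA per cell. Erythroid markers summed to 10.7 to 11.2 CPM in control and 11.8 to 12.9 at the end (1 higher and 1 lower of 4 tested), with HBA1, HBA2 and HBB at 0 in control. Lymphoid markers summed to 97.5 to 113 and 53.7 to 60.1 CPM (3 higher and 6 lower of 9), with MS4A1 at 0 in both. Platelet markers summed to 4.86 to 6.1 and 7.06 to 8.34 CPM (3 higher and 0 lower of 5), with PPBP and GP9 at 0 in both and GP1BB at 0 at the end. Epithelial markers summed to 5.31 to 9.59 and 11.8 to 14.1 CPM (3 higher and 1 lower of 6), with KRT18, KRT19 and CDH1 at 0 in both. Stromal and endothelial markers summed to 130 to 149 and 113 to 117 CPM (1 higher and 2 lower of 5), nearly all of it PECAM1, with COL1A2 and LUM at 0 in control and COL3A1 at 0 at the end. Their part in the other results was not tested.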

How the data were processed

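The authors deposited whole-number read counts per Ensembl gene for 18670 genes, without normalization. HISAT2 2.0.4 is named in the submitters' processing notes, while for the counter, genome build, annotation and strandedness the sources used here give nothing, so reads of overlapping, antisense or near-identical genes may be shared. Symbols were found for 18642 genes. One fit over the 12 THP-1 libraries used edgeR 4.0.16 in R 4.3.3 (TMM factors, filterByExpr, quasi-likelihood F test, Benjamini-Hochberg adjustment over 15403 genes). Each SE was obtained from the log2 fold change and F. Genes without control counts were set against a floor of 3 counts over the group, and floors and counting intervals cover counting error only. The test was tried on simulated data first.

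Named genes were S100A9, S100A8 and MYC, the 10 highest and 10 lowest called genes with at least 5 CPM and no overlap, up to 4 raised and 4 lowered genes per outcome, up to 4 members of each of 29 lists by smallest p, and displaced members of the ATF4, heat shock, cholesterol and MHC class II lists. A few genes that the rule names are not reported here. Members and lists were chosen with earlier results of these data known. Alternatives were DESeq2 1.42.0, other scalings, filters, margins and sizes, a replicate block and leaving out each library.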

Additional observations from a re-analysis of the deposited data

Results flagged for a closer look

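The overexpression effect differed with and without Adavivint for 36 of the 39 genes named through an outcome, by a test of the difference itself (interaction in edgeR, adjusted p below 0.05). These genes were chosen for a large overexpression effect without drug, and that effect is one side of the difference, so a smaller effect under the drug is favoured by the choice. The share over all genes tested is not given here, so the count of 36 is not read as a result about these genes. The values are log2 differences, the effect under the drug minus the effect without it. Among raised genes the effect was smaller or reversed under the drug for ATF5 (-0.791), ULBP1 (-0.982), SLC7A11 (-1.166), ALDH1L2 (-1.395), CHAC1 (-1.455), TTC39B (-1.279), SCART1 (-1.370), TXNIP (-0.963), PPFIA4 (-0.974), KRT16 (-1.903), LRATD2 (-1.506), P2RX7 (-1.375), DDIT4 (-1.329), KBTBD11-OT1 (-8.112), KRT17 (-1.135), BIRC3 (-1.285) and RELB (-1.228). Among lowered genes it was smaller or reversed for ID3 (2.045), HSPA1A (1.558), IDI1 (1.001), HMOX1 (0.647), MPV17L2 (1.008), HSPA1B (1.443), MATR3 (1.930), TP53INP2 (1.252), BICDL1 (0.880), SDF2L1 (1.178), FOSL1 (1.651), SPRY4 (1.602), HSPA8 (1.714), ID1 (1.529), NWD1 (1.071), GZMA (2.645), LRRC4 (0.967), DNAJA1 (1.211) and HSPH1 (0.900). The largest interaction, that of KBTBD11-OT1, comes from a gene with widely spread replicates. Single outlying libraries were not tested in groups of 3.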

How the results depend on the processing

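Calls against control hardly moved: 13077 genes passed, and between 12727 and 12962 when 1 library of the comparison was left out. With a replicate block 12954 passed. The numbers do not pair the samples by label, and deviations of same-numbered libraries correlated between -0.111 and 0.105. No named gene reversed under the settings tried. Of 195 named genes, 185 stayed on their side of the threshold throughout. SLC7A11, KRT16, LRATD2, EPOR and GP6 were among those that lost their call in some settings.

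Counts of displaced genes depended on the settings, and the cause was not tested beyond what each setting fixes. Leaving out 1 library gave 500 to 1087 displaced genes in all, 36 to 77 at control, 136 to 313 beyond, 195 to 413 further, 16 to 35 short, 67 to 159 without a drug call and 40 to 90 undecided, from 2753 to 5002 genes called with overexpression. A narrower margin, a ratio of 5/4 either way, left 1107 genes at control in all and 8 displaced ones, and a margin of 2-fold 6028 and 139, with 10 short and 32 undecided. Counting overexpression changes of any size gave 4307 displaced genes, 1087 at control, 1163 beyond, 1722 further and 239 without a drug call. Requiring 2-fold gave 283, with 8, 75, 100, 16, 49 and 35 at, beyond, further, short, without a drug call and undecided. Erythroid markers changed numbered 4 with DESeq2 size factors, 1 with library totals, without a filter, with only the 6 libraries or with the replicate block, and 1 to 3 over left-out libraries. With a filter of 1 CPM in 3 libraries 5 lymphoid markers changed. The erythroid and lymphoid counts rest on few genes.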
